A study of Mus musculus with 2 samples.

Results

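Kit, Jak2, Stat5a, Stat5b, Socs2, Cish, Sh2b3 and Pim1 encode a receptor, a kinase, transcription factors and feedback proteins of stem cell factor (SCF) and thrombopoietin signalling. They were chosen by name, with earlier results of these data known, and all 8 were found among the 14366 genes of both deposited tables. The cells were mouse hematopoietic stem cells (HSC), sorted from bone marrow pooled from 8 wild-type C57/B6 mice aged 6 to 8 weeks by absence of lineage markers and CD48 and by presence of Sca-1, c-Kit and CD150. Both cultures held SCF at 100 ng/ml, thrombopoietin at 50 ng/ml and Primocin, an antimicrobial, at 200 µg/ml for 48 h. One culture also received 10 µM deferoxamine (DFO), an iron chelator, and the other sterile water as vehicle. Each culture gave 1 single-cell library, with 8708 vehicle and 9852 DFO cells in the tables, so no difference has a replicate check and no test across cultures was possible. There was no culture without SCF or thrombopoietin.

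SCF binds KIT, a receptor tyrosine kinase whose protein was itself a gate of the sort. Thrombopoietin signals through the kinase JAK2 to STAT5A and STAT5B. STAT5 proteins enter the nucleus and switch on genes such as Cish, Socs2 and Pim1. CISH and SOCS2 then dampen cytokine signalling, SH2B3 (also called LNK) restrains JAK2 and KIT, and PIM1 is a serine/threonine kinase that favours survival and growth.

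Of the members, 7 had promoter windows in the RefSeq table for GRCm38.p6 (250 bases before to 50 after a start), 11 windows in all. The palindromic letters TTCNNNGAA, the core that STAT5 recognises, were searched. They read the same on both strands, and matches could overlap. Of 32851 windows of 300 bases, 8.3% held the letters at least 1 time and 0.457% held them 2 or more times. Among the members only the Cish window held them, with 2 matches, the first beginning at the annotated start base and the second 11 bases further on. The stretch is shown because it is the one member window with these letters; it lies at chr9:107296654-107296683, plus strand, with the matches in capitals.

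Cish start region: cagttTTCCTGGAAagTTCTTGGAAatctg

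The Pim1 window nearest the gene's start held no such letters, and is shown for contrast because Pim1 went with Cish from cell to cell in the results that follow. Its upstream part lies at chr17:29490535-29490752, plus strand. Capitals mark GC boxes (GGGCGG, or CCGCCC on the other strand), of which this stretch holds 6 and the whole window 7. At least 1 GC box was found in 35.7% of all windows.

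Pim1 upstream: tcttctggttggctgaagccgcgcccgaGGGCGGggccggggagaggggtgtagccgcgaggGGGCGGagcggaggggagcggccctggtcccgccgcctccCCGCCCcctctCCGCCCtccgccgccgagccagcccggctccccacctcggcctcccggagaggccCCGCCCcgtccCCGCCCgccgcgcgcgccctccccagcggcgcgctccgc

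Letters in a window do not show binding, and no match there says nothing about binding elsewhere.

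The vehicle table resolved into 260938938 molecules and the DFO table into 284326017, with a median of 27805.5 and 27114 unique molecular identifiers (UMIs) per cell. The median mitochondrial share was 3.88% and 4.40%, and 24 cell barcodes occurred in both libraries. Molecules were summed over cells and scaled to CPM (counts per 1000000 molecules of the library or cell group), and a difference is log2((DFO CPM + 1)/(vehicle CPM + 1)). Ranges in parentheses are exact 95% Poisson intervals, which cover counting error only. Megakaryocyte markers moved with the groups: their summed level was 2246.1 CPM with vehicle and 1199.3 CPM with DFO, 0 of the 16 markers in the tables were higher in DFO, and none was at 0. Their part in the differences over all cells was not tested.

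The feedback genes Cish and Socs2 were the members that differed most over all cells. Cish stood at 44.2 CPM (43.4 to 45.0) with vehicle and 53.9 CPM (53.1 to 54.8) with DFO, a difference of 0.28. Socs2 stood at 43.6 CPM (42.8 to 44.4) and 52.5 CPM (51.7 to 53.4), a difference of 0.26. Both intervals lay apart between the libraries. Sh2b3, the remaining inhibitor, was at 13.5 CPM (13.1 to 14.0) and 15.1 CPM (14.7 to 15.6), a difference of 0.15. Thus all 3 inhibitors were higher in the DFO library, as were 57.9% of the 8886 genes at a mean of 5 CPM or more.

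Kit, the SCF receptor, was at 35.3 CPM (34.6 to 36.0) with vehicle and 40.8 CPM (40.0 to 41.5) with DFO, a difference of 0.20. The signal relay differed less. Jak2 was at 15.1 CPM (14.6 to 15.6) and 13.8 CPM (13.4 to 14.2), a difference of -0.12. Stat5a was at 44.1 CPM (43.3 to 44.9) and 42.2 CPM (41.5 to 43.0), a difference of -0.061. Stat5b was at 21.3 CPM (20.8 to 21.9) and 22.1 CPM (21.6 to 22.7), and its intervals overlapped. Pim1 was at 125.6 CPM (124.2 to 126.9) and 118.5 CPM (117.2 to 119.8), a difference of -0.083, so this STAT5-responsive gene lay on the other side of 0 from Cish and Socs2.

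All 8 members reached 10 CPM in at least 1 library. At a size rule of an absolute log2 difference of 0.25 or more, 2 of 8 members passed, Cish and Socs2, both higher in DFO. Of the 7476 genes at that level 3.56% passed, 1.24% as higher and 2.31% as lower in DFO. At 0.5 or more no member passed, beside 0.589% of genes. The median difference was 0.101 over the members and 0.0206 over those genes. Because the members were chosen with earlier results known, these values describe the list and do not compare it with a blind choice. Cish and Socs2 lay just inside the size rule and Kit was the nearest outside it. With cells reweighted to equal cluster shares, Cish was at 0.332 and Socs2 at 0.207, and in male cells alone they were at 0.20 and 0.243.

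**Figure D1:**
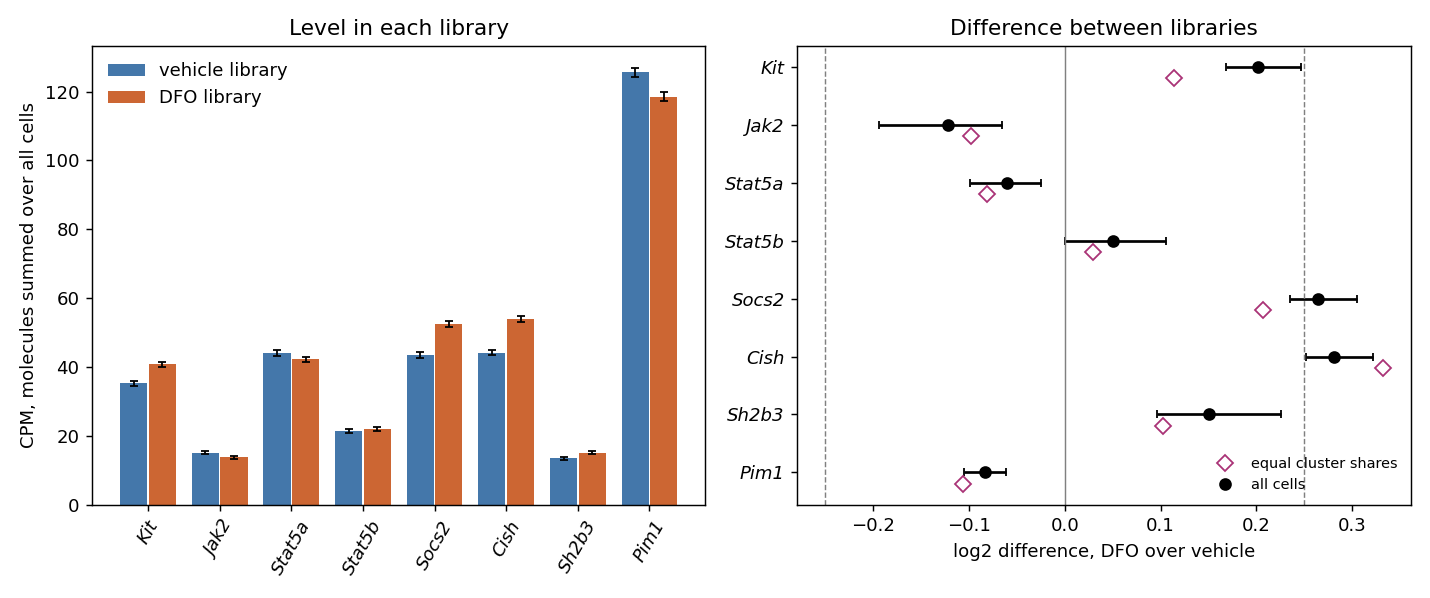
Left, level of each member in CPM (molecules summed over all cells) in the vehicle and DFO libraries, with exact 95% Poisson intervals. Right, log2 difference of DFO over vehicle with its 95% counting interval (points), the same with equal cluster shares (diamonds), and dashed lines at 0.25 in either direction; Cish and Socs2 lie past the line over all cells, and Cish alone with equal shares.

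The shares of cells with a molecule moved the same way. After each cell was thinned to 10000 UMIs, Cish was found in 27.4% of vehicle and 33.4% of DFO cells (49.6% and 55.9% unthinned). Socs2 was found in 31.3% and 36.4% (58.1% and 63.9% unthinned), and Kit in 29.8% and 32.9% (57.0% and 62.5% unthinned). Thinning left out 351 vehicle and 433 DFO cells that were shallower. No cell class here is known to lack these transcripts, so no background share could be measured for them. As a guide to stray RNA and doublets, cells rich in Xist held Y-linked transcripts at 2.77% (vehicle) and 3.12% (DFO) of the level in cells called male. Cish was uneven from cell to cell, with up to 25 molecules in a vehicle cell and a median of 0.

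Cells of both libraries were clustered without the members and the other genes of the pathway, and 9 clusters resulted. Cluster 7 was HSC-like (348 vehicle and 353 DFO cells, led by Dlk1, Sult1a1 and Wfdc2, with Procr and Ly6a in its top 10), cluster 5 megakaryocyte-like (816 and 473 cells, with Clec1b, Timp3, Pf4 and Ppbp) and cluster 8 neutrophil-monocyte-like (82 and 79 cells, led by Mpo, Ctsg and Elane, and with the basophil gene Mcpt8). The other 6 stayed unnamed: cluster 0 led by Hist1h2bc, cluster 1 by Shisa8, cluster 2 by Csrp3 and Egr1 with both platelet and red cell genes, clusters 3 and 4 with mitotic genes such as Nusap1, and the shallow cluster 6 with a median of 6971.5 UMIs and 6.84% mitochondrial molecules. Cluster sizes are not compared, because 264 of 598 genes that differed between the libraries took part in the clustering. Cluster 6 is left out of the orders of level that follow.

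Kit had its highest level in HSC-like and its lowest in megakaryocyte-like cells. In vehicle it was at 54.9 CPM in HSC-like cells, 54.1 CPM in neutrophil-monocyte-like cells, 50.7 CPM in mitotic cluster 3 and 48.1 CPM in cluster 0. Clusters 1 and 4 followed at 36.7 and 33.7 CPM. Cluster 2, with its platelet and red cell genes, had 23.3 CPM, and the megakaryocyte-like cells had 9.75 CPM. Within the first 4 of these values, and between clusters 1 and 4, neighbours overlapped in their counting intervals, whereas cluster 2 and the megakaryocyte-like cells each stood apart. The range was 5.2-fold.

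Cish had another order. Its vehicle level was 65.5 CPM in HSC-like cells, 58.0 in megakaryocyte-like cells and 57.8 in cluster 2, which overlapped. Clusters 1 and 4 had 47.9 and 39.0 CPM, and the lower pair, clusters 3 and 0, overlapped at 30.7 and 27.9 CPM. Neutrophil-monocyte-like cells had 7.10 CPM, from 18 molecules. Cish thus was high in both HSC-like and megakaryocyte-like cells, where Kit was highest and lowest.

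Socs2 was highest in HSC-like cells, at 83.9 CPM, and followed by cluster 3 at 61.8 CPM. Clusters 0 and 1 overlapped at 46.0 and 45.8 CPM, and cluster 4 (34.3), megakaryocyte-like cells (31.1) and cluster 2 (30.7) formed a lower step in which neighbours overlapped. Neutrophil-monocyte-like cells had 8.68 CPM, from 22 molecules. The 2 feedback genes thus shared their highest and their lowest cluster and differed in order between these. Cluster 3 was high for Socs2 and low for Cish (30.7 CPM). Cluster 2 and the megakaryocyte-like cells were high for Cish (57.8 and 58.0 CPM) and low for Socs2.

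The other members were more even. From the highest to the lowest cluster in vehicle, Sh2b3 went from 21.2 CPM in HSC-like cells to 8.29 CPM in neutrophil-monocyte-like cells, and Pim1 from 173.3 to 101.4 CPM between the same clusters. Jak2 went from 18.0 CPM in cluster 2 to 8.68 CPM in neutrophil-monocyte-like cells. Stat5a went from 53.8 CPM in cluster 4 to 30.5 CPM in megakaryocyte-like cells, and Stat5b from 25.6 CPM in cluster 0 to 14.4 CPM in megakaryocyte-like cells. On the log2 scale these ranges were 0.77 for Pim1, 0.79 for Stat5b, 0.80 for Stat5a, 0.97 for Jak2 and 1.26 for Sh2b3, against 2.38 for Kit, 3.04 for Cish and 3.13 for Socs2. The Cish and Socs2 ranges rest on 18 and 22 molecules in the small neutrophil-monocyte-like cluster, and that of Kit does not use this cluster. The next lowest vehicle levels were 27.9 CPM for Cish in cluster 0 and 30.7 CPM for Socs2 in cluster 2. Over 7393 genes at a mean of 10 CPM or more the median range was 0.539, and 18.46% of genes had 1 or more.

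**Figure D2:**
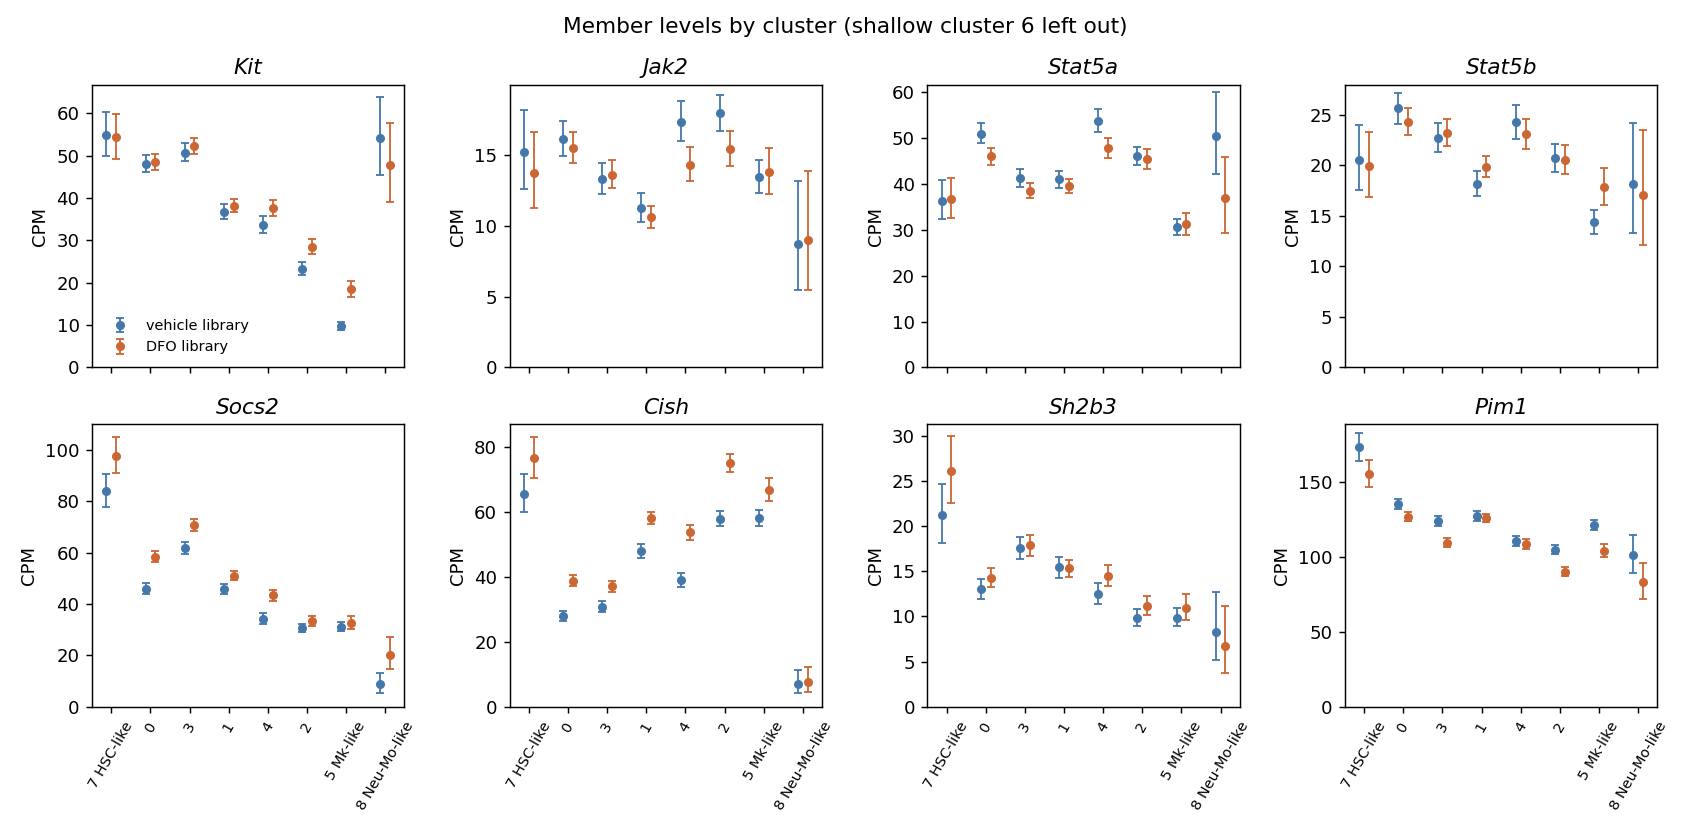
Level of each member in CPM (vertical axes from 0) in 8 clusters, for the vehicle and DFO libraries with exact 95% Poisson intervals. Clusters stand in an order set by hand, not a measured lineage path, with HSC-like cells first and megakaryocyte-like (Mk-like) and neutrophil-monocyte-like (Neu-Mo-like) cells last. Kit is lowest in megakaryocyte-like cells, 9.75 CPM in vehicle, whereas Cish is at 58.0 CPM there.

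The thinned cells were also divided by marker level, without clusters, and the 3 marker sets gave different orders. In 4 groups of rising summed multipotent progenitor markers (7 genes, among them Cd48, Cd34 and Cd27), vehicle Kit was at 22.0, 37.6, 44.3 and 53.0 CPM from the lowest to the highest group. Cish ran the other way, at 57.5, 46.7, 37.8 and 21.0 CPM. In DFO the lowest and highest groups had 33.0 and 52.8 CPM of Kit and 73.5 and 27.3 CPM of Cish. The Cish difference between libraries ran from 0.33 to 0.36 over the 4 groups, whereas that of Kit was 0.56 in the lowest group and -0.0044 in the highest.

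By the 16 HSC markers the orders were weaker, with vehicle Kit at 35.0, 37.1, 40.2 and 41.6 CPM and Cish at 41.6, 40.1, 38.9 and 46.7 CPM over the 4 groups. By the megakaryocyte markers vehicle Kit was at 46.4, 44.3, 44.6 and 23.9 CPM, low in the highest group alone, and Cish was at 39.8, 37.7, 34.2 and 50.2 CPM. Opposite orders of Kit and Cish over all 4 groups were thus seen with the multipotent progenitor markers and not with the other 2 sets.

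Within clusters, Cish was higher in DFO in 9 of 9, by 0.094 to 0.65, and its intervals overlapped in the HSC-like and neutrophil-monocyte-like clusters. In cluster 0 it went from 27.9 to 38.8 CPM, a difference of 0.46, and in cluster 2 from 57.8 to 74.8 CPM, a difference of 0.37. Socs2 was higher in 9 of 9, by 0.0027 to 1.13, and its intervals overlapped in cluster 2, the megakaryocyte-like cells and cluster 6. Its largest difference came from 22 and 45 molecules in neutrophil-monocyte-like cells. Pim1 was lower in 8 of 9 and higher in the shallow cluster 6. Its intervals overlapped in clusters 1 and 4 and in the HSC-like and neutrophil-monocyte-like clusters. Such directions are common here: of the same 7476 genes, 14.1% were higher in all 9 clusters and 14.7% lower in 8 or more. In 3 other clusterings, over clusters that were not shallow and had at least 50 cells in each library, Cish and Socs2 were higher in 3 of 3, 14 of 14 and 7 of 7, and Pim1 was lower in 3, 11 and 7.

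At 0.25 or more as higher in DFO, Cish passed in 6 clusters, Socs2 and Kit in 3 each, Sh2b3 in 2 and Stat5b in 1. The share of all genes that passed as higher was 2.0%, 0.679%, 3.37%, 0.936% and 3.52% for clusters 0, 1, 2, 3 and 4 in that order. It was 5.5% in megakaryocyte-like cells, 14.2% in the shallow cluster 6, 7.39% in HSC-like cells and 18.9% in neutrophil-monocyte-like cells. Cish passed in clusters 0, 1, 2, 3, 4 and 6, and Socs2 in clusters 0, 4 and 8. Kit passed in clusters 2, 5 and 6, with intervals apart. Sh2b3 passed in clusters 6 and 7, with overlapping intervals. Stat5b passed in megakaryocyte-like cells (0.30), with intervals apart. Jak2, Stat5a, Sh2b3 and Pim1 each passed as lower in 1 cluster, and no share of all genes was counted for that direction.

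Kit differed by the most in megakaryocyte-like cells, among the 9 clusters. In megakaryocyte-like cells it was at 9.75 CPM (8.79 to 10.8) with vehicle and 18.5 CPM (16.7 to 20.4) with DFO, a difference of 0.86 from 373 and 387 molecules. In cluster 2 it was at 23.3 and 28.5 CPM, a difference of 0.28. The shallow cluster 6, where Kit was high, had 51.1 and 69.6 CPM, a difference of 0.44. In HSC-like cells it was at 54.9 and 54.3 CPM, and the intervals overlapped. Whether these differences themselves differ was not tested, with 1 library a group.

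The megakaryocyte-like cells of the 2 libraries also differed in their markers, with a summed level of 7775.9 CPM with vehicle and 5438.0 CPM with DFO and a median of 62 and 36.5 marker molecules per 10000 UMIs. In 4 groups of rising marker molecules within the cluster, Kit differed by 0.53, 0.87, 0.20 and 0.91, each from 9 to 38 molecules a library, and the intervals of the libraries overlapped in all 4 groups. Over the other clusterings and cell selections tried, the Kit difference in megakaryocyte-like cells ranged from 0.50 to 1.00. The part of marker level in it was not tested beyond these groups. With equal cluster shares the Kit difference over all cells was 0.114, against 0.202 as deposited.

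**Figure D3:**
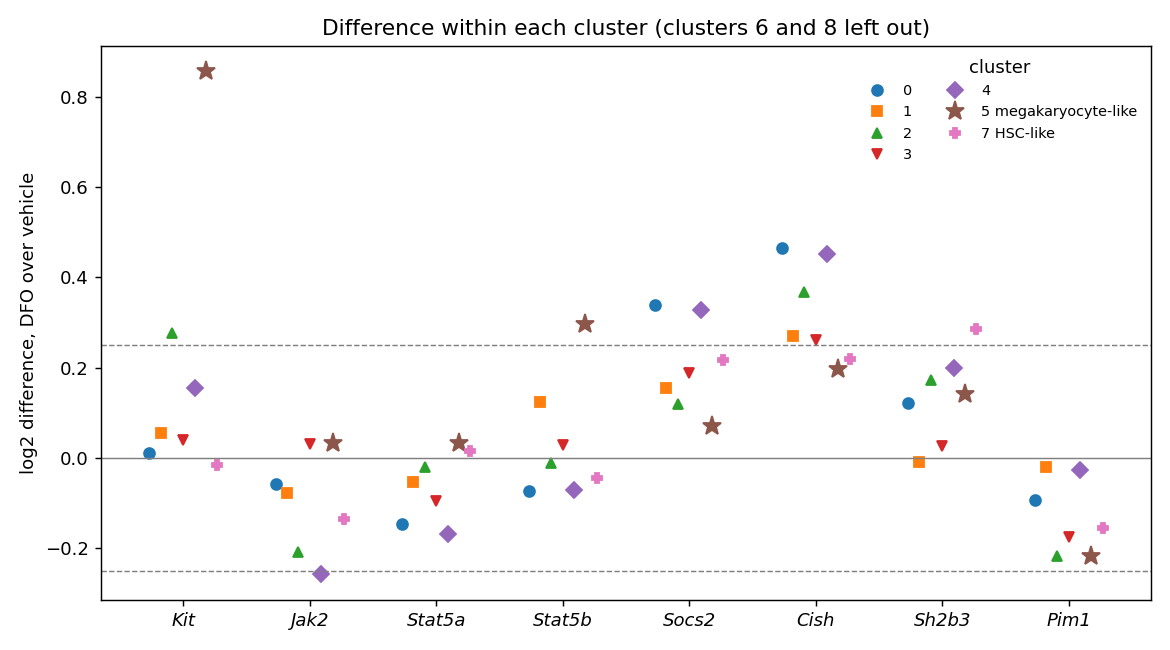
Log2 difference of DFO over vehicle (vertical axis) within each of 7 clusters for the 8 members; each symbol is 1 cluster, dashed lines mark 0.25 in either direction. All 7 symbols lie above 0 for Cish and Socs2 and below 0 for Pim1, and for Kit the megakaryocyte-like cells stand at 0.86.

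Kit, Stat5a, Stat5b and Pim1 had their highest vehicle levels in G1, by phases called on thinned cells, with intervals apart from those of S and G2/M. In vehicle, Kit was at 60.9 CPM in G1, 39.8 in S and 34.6 in G2/M, and in DFO at 72.3, 44.9 and 39.1 CPM. Stat5a in vehicle was at 65.8 CPM in G1 and 44.6 in G2/M, and its G1 level in DFO was 47.9 CPM. Stat5b in vehicle was at 29.1 CPM in G1 and 20.9 in G2/M. Pim1 in vehicle was at 155 CPM in G1, 119.4 in S and 126.9 in G2/M. Its DFO levels were 165.8, 115.4 and 116.6 CPM. In G1 Pim1 was thus higher in DFO, with overlapping intervals. Cish had 45.0 CPM in G1 and 40.6 in G2/M in vehicle, with overlapping intervals. Its DFO levels were 43.1 CPM in G1, 55.9 in S and 51.7 in G2/M, so that the libraries overlapped in G1 and not in S or G2/M. G1 held 629 vehicle and 459 DFO cells, and clusters differ in phase, so phase and cluster move together.

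From cell to cell within clusters, Cish went with both Pim1 and Socs2. Cells were thinned, and those with and without a molecule of a gene were compared with the clusters weighted alike. In vehicle, cells with Cish had 157.9 CPM of Pim1 and cells without it 116.2 CPM, a log2 ratio of 0.44, and in DFO the values were 145.2 and 105.7 CPM, a ratio of 0.45. Socs2 had ratios of 0.41 and 0.42. Among 7392 genes ranked by this ratio, Pim1 was 25 in vehicle and 22 in DFO, and Socs2 was 34 and 28. Socs2 and Pim1 also went together, with smaller ratios. Between cells with and without Socs2, Pim1 had ratios of 0.16 in vehicle and 0.21 in DFO, at ranks 312 and 88. Between cells with and without Pim1, Socs2 had ratios of 0.19 in vehicle and 0.24 in DFO, at ranks 108 and 32. In the ranking by Cish, the genes at ranks 1 and 2 in both libraries were Slfn2 and Egr1, an immediate early gene.

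With Pim1 as the starting gene, Cish ranked 1 of 7392 in both libraries, with ratios of 0.65 and 0.66. The levels by number of Pim1 molecules that follow are sums over all thinned cells, not weighted by cluster, so cluster make-up enters them. In vehicle, Cish was at 30.3 CPM in cells with 0 Pim1 molecules, and 40.8, 47.5, 55.1 and 72.7 CPM in cells with 1, 2, 3 and 4 or more. In DFO it was at 39.2, 51.9, 56.1, 81.3 and 92.9 CPM. Cish was therefore higher in DFO at each Pim1 level, by 0.24 to 0.55 on the log2 scale, although Pim1 itself was lower. These values share libraries and cells and describe the cells measured.

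Kit ran opposite to Cish and Socs2 when cells were split by Kit. Cells with a Kit molecule had 33.4 CPM of Cish in vehicle against 41.2 CPM in cells without Kit, a ratio of -0.30, and the DFO ratio was -0.30 as well. For Socs2 the ratios were -0.17 and -0.21. Cish was at rank 7378 in vehicle and 7386 in DFO, near the bottom of the genes ranked. For Pim1 the ratios were -0.10 and -0.064, within the central 95% of genes. Split by Cish, Kit had ratios of -0.18 in vehicle and -0.22 in DFO, and split by Socs2 of -0.15 and -0.22. The vehicle values lay within the central 95% of genes and the DFO values below it. Kit was not alone in this. Split by Cish and by Socs2, Stat5b had -0.29 and -0.27 in vehicle, both below the central 95%, and -0.012 and -0.048 in DFO, both within it. Stat5a had -0.093 and -0.17 in vehicle and -0.16 and -0.19 in DFO, and only the last of these lay below the central 95%. Jak2 had -0.20 and -0.18 in vehicle and -0.19 and -0.041 in DFO, all within it. By number of Cish molecules, Kit was at 40.5 CPM in vehicle cells with 0 and 21.8 CPM, from 22 molecules, in cells with 4 or more, again without weighting by cluster.

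**Figure D4:**
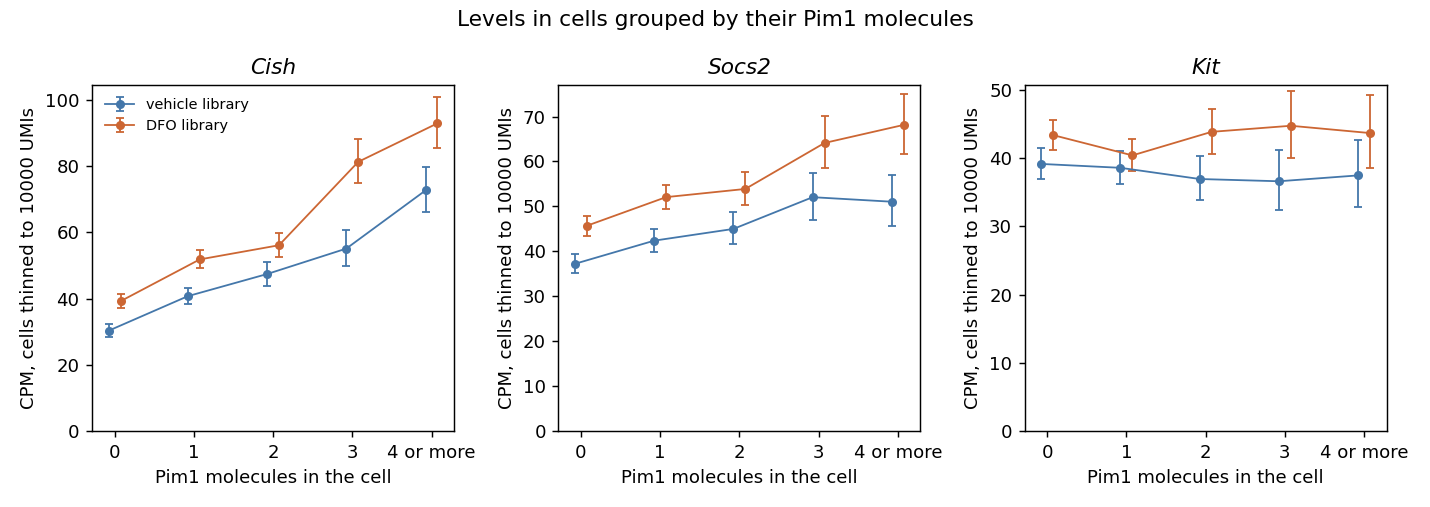
Level of Cish, Socs2 and Kit in CPM (vertical axes from 0) in cells with 0, 1, 2, 3 and 4 or more Pim1 molecules after thinning to 10000 UMIs, all clusters together, for the vehicle and DFO libraries with exact 95% Poisson intervals. Cish climbs from 30.3 to 72.7 CPM in vehicle and from 39.2 to 92.9 CPM in DFO, whereas Kit stays between 36.6 and 44.8 CPM.

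The other genes of the pathway were read from 6 lists, with genes at a mean of 5 CPM or more. Over all 8886 genes at that level the median difference was 0.019, 57.9% were higher in DFO, 1.4% were at 0.25 or more and 2.58% at -0.25 or less. Of 32 genes listed as negative feedback, 23 were higher in DFO and 9 lower, with a median of 0.087, and the 2 past 0.25 were Cish and Socs2. The list includes the members Cish, Socs2 and Sh2b3. It also includes Sh2b1 (0.17, named outside the naming rule), whose role as an inhibitor was not checked. At a minimum of 20 CPM the median was 0.0402. At the lower end were Dok2, an adaptor that restrains RAS signalling, at 107.7 and 94.6 CPM (-0.19), and Spry1, another inhibitor of receptor tyrosine kinases, at 5.90 and 5.39 CPM (-0.11). With equal cluster shares Dok2 was at -0.064 and Spry1 at 0.026.

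Of 18 STAT5-responsive genes, 11 were higher and 7 lower, with a median of 0.045 that was 0.10 with equal cluster shares. The 3 past 0.25 were Id1, Cish and Socs2. Id1, an inhibitor of basic helix-loop-helix factors, was at 143.6 CPM with vehicle and 187.4 CPM with DFO, a difference of 0.38, and of 0.389 with equal cluster shares. Cdk6 (-0.19) and Ccnd3 (-0.19), which drive entry into S phase, were lowest. This list shares Cish and Socs2 with the feedback list, and also Socs1 and Socs3, which are named only for this overlap.

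Of 26 genes of the KIT relay, 15 were higher and 11 lower, with a median of 0.017. None passed 0.25 as higher, and Kit and Akt1 (0.19) were highest. Ptpn11, which encodes the phosphatase SHP2, passed as lower, at 76.2 and 58.2 CPM (-0.38), and at -0.21 with equal cluster shares. Vav1, a guanine nucleotide exchange factor, was next at -0.17.

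Of 11 JAK-STAT genes 2 were higher and 9 lower, none past 0.25, with a median of -0.052 that was -0.0145 at a minimum of 20 CPM. Stat5b was highest, and Stat6 (-0.14) and Jak2 lowest. Of 18 receptors 9 were higher and 9 lower, with a median of 0.0022 that was -0.0459 with equal cluster shares and -0.0189 at a minimum of 20 CPM. The 3 receptors past 0.25 were lower: Epor, the erythropoietin receptor (8.36 and 6.08 CPM, -0.40), Insr, the insulin receptor (-0.33), and Il3ra, the interleukin-3 receptor subunit (-0.29, named after its value was seen). With equal cluster shares Epor was at -0.18 and Insr at -0.17, no longer past 0.25, and Il3ra at -0.35. Il2rg (0.21) and Kit were highest.

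Of 9 transcription factors that act upstream of Kit, 2 were higher and 7 lower, with a median of -0.104 and of -0.021 with equal cluster shares. Gata1, a factor of red cell and megakaryocyte development, was at 24.0 and 14.9 CPM (-0.65), and at -0.27 with equal cluster shares. Fli1 was at -0.22, Ldb1 at 0.26 and Myb at 0.01, and with equal cluster shares Fli1 was at -0.053, Ldb1 at 0.24 and Myb at -0.045.

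**Figure D5:**
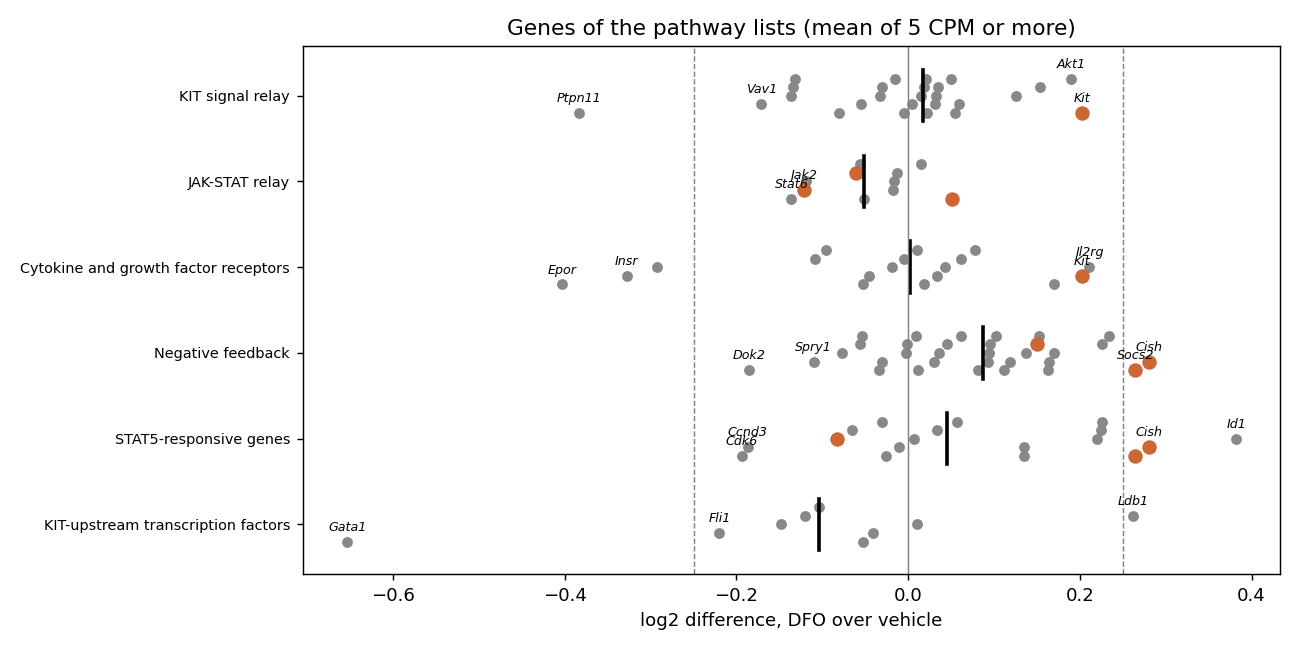
Log2 difference of DFO over vehicle (horizontal axis) for each gene of 6 pathway lists at a mean of 5 CPM or more; orange points are members, grey points other genes, black bars list medians, dashed lines 0.25 in either direction. The feedback list has its median at 0.087, and Gata1 lies farthest to the left at -0.65.

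For each member the 3 genes most like it over 18 cluster-by-library values were found by Pearson correlation of log2(CPM + 1) among 7392 genes, as a description. These points share libraries, depth and the shallow cluster. Kit was most like Fam107b (r = 0.97), Rel and Hoxa7. Cish was most like Ryk (0.96), Skil and Tgm2. Socs2 was most like Grb10 (0.98), itself an adaptor that dampens receptor signalling, then Gimap5 and Scarf1. Pim1 was most like Ankle2 (0.98), Dctn4 and Lrrc8a, and Sh2b3 like Tmem135 (0.97), Nfat5 and Dst. Jak2 was most like Etnk1 (0.97), Vamp2 and Rnf166, Stat5a like Spns2 (0.93), Ly6e and Cpne2, and Stat5b like Lpin2 (0.96), Kdsr and Epc1.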

How the data were processed

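For each library the authors deposited natural log values per gene and cell, with gene symbols and no coordinates. FastQC 0.11.9, Trim Galore 0.6.5, Cell Ranger 3.0.2 and mm10 are named in the submitters' processing notes; no source used here states the cell filter. Back-transformed, cells summed to at most 27408, and all nonzero values came out as whole molecules within 0.05. Depth ranged from 2009 to 98885 UMIs per vehicle cell and from 2020 to 99237 per DFO cell. All cells were used.

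The members and lists were chosen with earlier results of these data known. Named are the members, the 2 highest and 2 lowest genes of each list, the 3 genes most like each member, and leading cluster genes; others are said to be outside this rule, and some items are not reported here. Analysis used Python 3.11.15, scanpy 1.11.5 and leidenalg 0.10.2: 2000 variable genes without S phase, G2/M, mitochondrial, ribosomal protein, member and pathway genes (128 of the last 2 kinds), 30 components, 15 neighbours, Leiden resolution 0.5, seed 0. A cluster was named from at least 3 detected markers. Scrublet called 3 and 2 doublets and so had not worked; as an alternative the top 8% by its score and cells of both sexes were left out (820 and 925 cells). Sums carry exact 95% Poisson intervals, without variation between cells or cultures. The 3′ ends (500 bases) of Stat5a and Stat5b transcripts in GENCODE M21 share 0 words of 31 bases. Calculations were tested on simulated data.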

Additional observations from a re-analysis of the deposited data

How the results depend on the processing

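No member changed sign under the 15 alternatives for all cells, of which the 2 pseudocounts and the 2 expression minimums cannot change a sign. No paired analysis was possible because each group has 1 library. The count of members past 0.25, 2 as reported, was 1 with trimmed mean scaling, 1 with totals without mitochondrial and ribosomal protein genes, 1 with equal cluster shares, 1 in female cells, 1 with equal shares of a clustering without differing genes (an alternative added after seeing the data), 0 in male cells and 0 with a pseudocount of 10 CPM. The count of genes past 0.25, 266 as reported, was 138 with a pseudocount of 10 CPM, 598 at a minimum of 1 CPM, 79 at a minimum of 50 CPM (which 3 of 8 members reached) and 160 with equal cluster shares. The median member difference, 0.101 as reported, was 0.0655 with a pseudocount of 10 CPM and 0.0661 with equal cluster shares. Cish ranged from 0.20 to 0.337, Socs2 from 0.205 to 0.284 and Kit from 0.114 to 0.207. Pim1 ranged from -0.106 with equal cluster shares to -0.0139 with the mean of per-cell CPM. Leaving out the shallow cluster, also added after seeing the data, gave 0.271 for Cish, 0.271 for Socs2 and 0.196 for Kit. The cause of these shifts was not tested. Ranges over clusters depended on the clustering. With both libraries summed and 1 CPM added, the log2 range of Cish was 3.11 and that of Socs2 2.6. At the coarser resolution 0.25 they were 0.662 and 0.724, and at the finer resolution 1.0 they were 2.6 and 2.22. In the clustering without differing genes they were 1.24 and 1.42. The range of Kit was 2.01, and 1.07 at resolution 0.25, where it was wider than those of Cish and Socs2. For Kit it was 2.2 at resolution 1.0 and 1.33 without differing genes. Few molecules limit the neutrophil-monocyte-like cluster, of 82 and 79 cells, where Cish rests on 18 and 17 molecules.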
